A study of Mus musculus with 5 samples.

Results

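The 10 mouse synaptotagmin genes Syt1, Syt2, Syt3, Syt4, Syt5, Syt7, Syt9, Syt11, Syt13 and Syt14 were examined for binding of REST in the embryonic pancreas. They were taken by name, and a gene was given every REST peak inside its gene body or within 50 kb of its start on either side, in the mm9 mouse genome. Of these 10 genes, 7 had a site in any library, against 9.84% of the 22225 protein-coding genes searched in the same way. Each of the 7 genes had 1 site, of 1860 sites in the whole genome. The peaks came from chromatin immunoprecipitation with the mouse monoclonal antibody 12C11 against REST, followed by sequencing. There were 3 libraries of E18.5 pancreas (A, B and C), each a pool of 3 to 4 organs, and 2 libraries of E13.5 pancreas (A and B), each a pool of 4 to 6 organs. All embryos were wild type and untreated, of a mixed strain with C57BL/6. Whole organs were used, so the cells in which a site was bound cannot be told apart, and a peak list holds no expression values against which the tissue could be checked. The letters name different embryos at the 2 stages.

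REST is a zinc-finger repressor that binds a DNA element called RE1 (repressor element 1) and recruits corepressors, and it is known for keeping neuronal genes silent outside neurons. Synaptotagmins are vesicle proteins with paired C2 domains, and several of them bind calcium there and couple its entry to the fusion of vesicles with the plasma membrane. In the pancreas the family is known from islet cells, where hormone granules are released on calcium entry. Not all of the 10 proteins are calcium sensors in this strict sense. Syt4 and Syt11 carry a substitution in the first C2 domain that weakens calcium binding, and Syt13 and Syt14 lack the calcium-binding residues.

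The E18.5 lists held 541, 417 and 226 peaks in libraries A, B and C, and the E13.5 lists held 1400 and 1333 peaks in libraries A and B. The authors gave every peak a whole-number score, and what it measures is not stated in the labels, the lists or the study's methods. The median score of a library lay between 6 and 11 at E18.5, and it was 14 and 17 at E13.5. Scores were therefore also read as a percentile within the library, where 100 is the highest score. The number of reads per library is unknown, and a site without a peak in a list was not called there, which does not measure absence of binding.

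The RE1 matches at the member sites are shown first, since they are the sequences that could be read directly beside the peaks. A 21-base consensus was derived from 300 high-scoring E13.5 sites, none within 100 kb of a gene named here, and the closest match was looked for in the 500 bp around the centre of each site. The consensus was TTCAGCACCACGGACAGCGCC. In each line below, capitals mark the 21-base match and lower case marks 20 bases of flank on either side, in mm9, 5′ to 3′ on the strand of the match. They come from chr1:136561562-136561622 (plus strand) for Syt2, chr7:114536451-114536511 (minus strand) for Syt9, chr7:51591151-51591211 (minus strand) for Syt3 and chr1:194862330-194862390 (plus strand) for Syt14.
Syt2: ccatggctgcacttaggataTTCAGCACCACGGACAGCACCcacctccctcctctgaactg
Syt9: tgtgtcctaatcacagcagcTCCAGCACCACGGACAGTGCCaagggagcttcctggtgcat
Syt3: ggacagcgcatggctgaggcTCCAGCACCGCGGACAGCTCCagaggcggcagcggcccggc
Syt14: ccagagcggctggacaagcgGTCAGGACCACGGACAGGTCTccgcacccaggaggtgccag
With positions counted from 1 at the 5′ end of the match and the base of the consensus written first, the Syt2 element differed from the consensus by G19A alone. The Syt9 element differed by T2C and C18T. The Syt3 element differed by T2C, A10G and G19T. The Syt14 element, the most divergent of those counted as a match, differed by T1G, C6G, C18G, G19T and C21T.

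The Syt7 site held a pair of elements on the same strand, at chr19:10477771-10477791 and chr19:10477809-10477829, with 17 bp between them and 38 bp from start to start. Both are shown in capitals in the stretch chr19:10477761-10477839, plus strand.
Syt7: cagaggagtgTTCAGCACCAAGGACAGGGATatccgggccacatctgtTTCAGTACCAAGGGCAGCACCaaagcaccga
The first element differed from the consensus by C11A, C18G, C20A and C21T, and the second by C6T, C11A, A14G and G19A. A pair of this kind was uncommon. Of 629 sites in the genome with an element of at most 4 mismatches, 24 (3.82%) held more than 1.

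An RE1 match, set at no more than 5 mismatches, was present at 6 of the 7 member sites, namely those of Syt2, Syt3, Syt4, Syt7, Syt9 and Syt14. Over the genome it was present at 48.1% of 1849 sites searched and in 0.162% of windows of the same size 10 kb away. The 6 member sites were all called in both E13.5 libraries, where matches were more common than among all sites. Of the genome's sites called in both, 127 had 2 or fewer mismatches, 637 had 3 to 5 and 419 had 6 or more. The Syt4 site held an element with 3 mismatches. The exception was Syt1, whose best match is shown from chr10:108203422-108203482, plus strand, with the match in capitals.
Syt1: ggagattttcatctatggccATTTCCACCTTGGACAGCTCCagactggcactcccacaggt
It had 7 mismatches, of which 5 fell in the first 10 bases and 2 in the last 11. With both elements of Syt7 counted, the 6 matched sites held 7 elements, and in all 7 the bases at positions 3, 4, 5, 7, 8, 9, 12, 13, 15, 16 and 17 were those of the consensus. At each of these positions, 86.2% to 100% of the 890 matched sites of the genome had it too, where 1 element a site was counted. Positions 18 and 19 had the consensus base in 3 of the 7 elements each, against 70.0% and 47.9% of those sites. Position 11 had the consensus base in 5 of the 7, against 34.4%. A match is a description of letters and was not tested for binding apart from the peaks.

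The elements lay inside the peaks of every library that called the site. All 21 peaks at the 6 matched member sites held the whole element (for Syt7 the second of the pair, nearer the centre of the site), as did between 99.3% and 100% of the peaks at all matched sites in E18.5 A, B and C and 99.3% and 99.9% in E13.5 A and B. The distance from the element to the centre of the library's own peak was 1 to 141 bp at the members, with a median of 19 bp. The member medians were 10, 48.5 and 67.5 bp in E18.5 A, B and C (3, 2 and 4 peaks), against 11 and 15.5 bp in E13.5 A and B (6 peaks each), so E18.5 B and C stood apart and E18.5 A did not. The genome-wide medians were 42, 40 and 44 bp at E18.5, against 11 and 15 bp at E13.5. The farthest element was that of Syt14 in E18.5 C, at 141 bp.

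**Figure D1:**
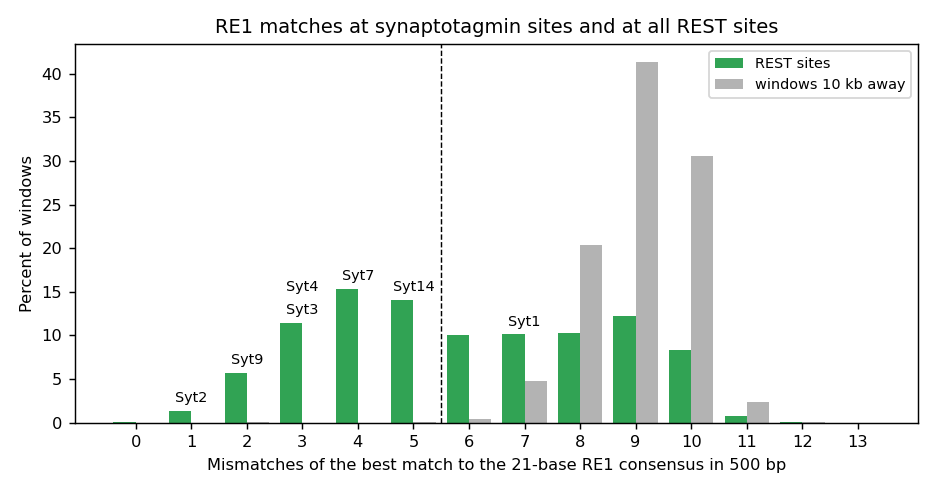
Percent of windows (y axis) by the number of mismatches of their best match to the 21-base RE1 consensus (x axis), for 1849 REST sites (green bars) and for windows of the same size 10 kb away (grey bars). Names stand above the bar of each member site. The dashed line separates matches (at most 5 mismatches) from the rest, and 6 of the 7 member sites lie to its left while Syt1, at 7 mismatches, lies to its right.

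The closeness of a member's element to the consensus did not follow the rank of its peak. The Syt2 element, with 1 mismatch, was among the closest, since 1.51% of all sites had as few, and its mean score percentile at E13.5 was 70.1. The Syt9 element had 2 mismatches, a number reached by 7.25% of sites, and the lowest mean percentile of the 6 sites called in both E13.5 libraries, 37.1. Syt3 and Syt4 had 3 mismatches each, with mean percentiles of 93.1 and 60.2. Syt7, with 4 mismatches, had 83.3, and Syt14, with 5, had 68.6. Over the genome the median percentile was 72.8 for the 127 sites of both E13.5 libraries with 2 or fewer mismatches, 56.3 for the 637 sites with 3 to 5 and 48.5 for the 419 sites with 6 or more, with a wide range in each class.

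**Figure D2:**
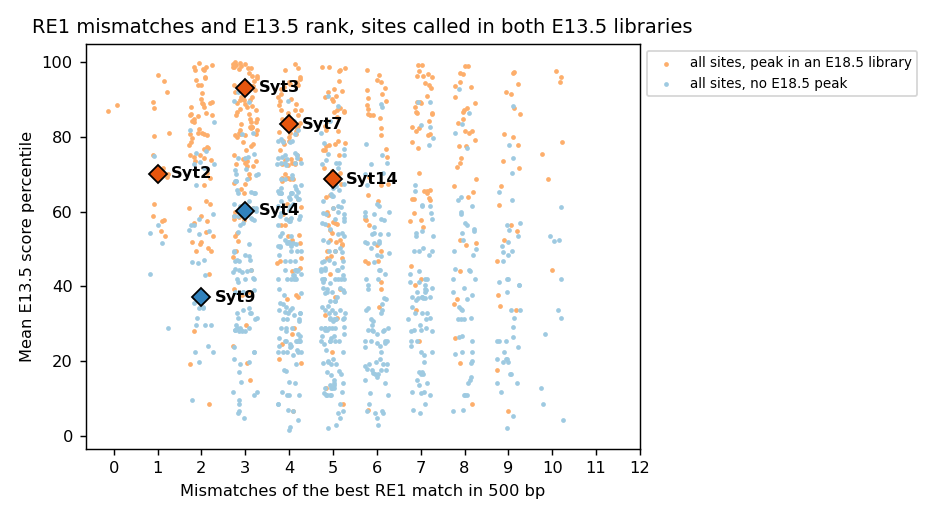
Mean score percentile in the 2 E13.5 libraries (y axis) against mismatches of the best RE1 match (x axis, points spread sideways) for sites called in both E13.5 libraries. Small points are all such sites and diamonds the 6 member sites, in orange where called at E18.5 and in blue where not. Syt9 lies low at 2 mismatches and Syt3 high at 3.

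Elements were also counted without regard to peaks. A scan of the genome for elements with at most 4 mismatches found 6 of them in the search stretches of the 10 genes, and all 6 lay in called sites. These were 1 each at Syt2, Syt3, Syt4 and Syt9 and the pair at Syt7. The stretches of Syt1, Syt5, Syt11, Syt13 and Syt14 held none. Over the genome, 100% of 27 elements with 1 mismatch, 97.3% of 110 with 2, 83.0% of 264 with 3 and 44.3% of 695 with 4 lay in a called site. The consensus came from peaks of these libraries, so these shares are a description.

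Sites were found at more of the members at E13.5 than at E18.5 in the lists as deposited. A site called in at least 2 of the 3 E18.5 libraries was present at 4 members (Syt2, Syt3, Syt7 and Syt14), where 2.21% of all protein-coding genes had one. The same 4 members were those with a site in any E18.5 library, against 4.98% of all genes. A site called in both E13.5 libraries was present at 6 members (all those above plus Syt4 and Syt9), against 6.93% of genes. Syt1 brought the members with a site in any library to 7, against 9.84% of genes. By library, 3, 2 and 4 members had a site in E18.5 A, B and C, where 3.30%, 3.07% and 1.98% of all genes did, and 7 and 6 members had one in E13.5 A and B, against 7.90% and 7.60% of genes. The median stretch searched was 107.046 kb for the members and 100.001 kb for all protein-coding genes. The longest was 563.333 kb among the members (Syt1) and 4484.88 kb among all genes. The genes were chosen with earlier results of these data known, so these counts are a description and carry no test.

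The order of the stages in these counts depended on the lengths of the lists. With every library limited to its 226 highest-scoring peaks, the length of the shortest list, a site in at least 2 E18.5 libraries was present at 3 members (Syt3, Syt7 and Syt14), against 1.79% of all genes. A site in any E18.5 library was then present at 4 members, against 3.16% of genes. A site in both E13.5 libraries was present at 1 member, Syt3, against 1.48% of genes. These rules are unlike, since only that of E13.5 asked for a peak in every library of the stage. At Syt7 the peak of E13.5 B, at place 199 from the top, was kept, and that of E13.5 A, at place 236, was not. With 1 E18.5 library left out, the rule of at least 2 asked for both that remained, so the count could only stay or fall. Without E18.5 A, the members with such a site were 2 (Syt3 and Syt14), against 1.37% of genes. Without E18.5 B they were 3, against 1.49% of genes, and without E18.5 C only Syt3 was left, against 1.54% of genes.

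**Figure D3:**
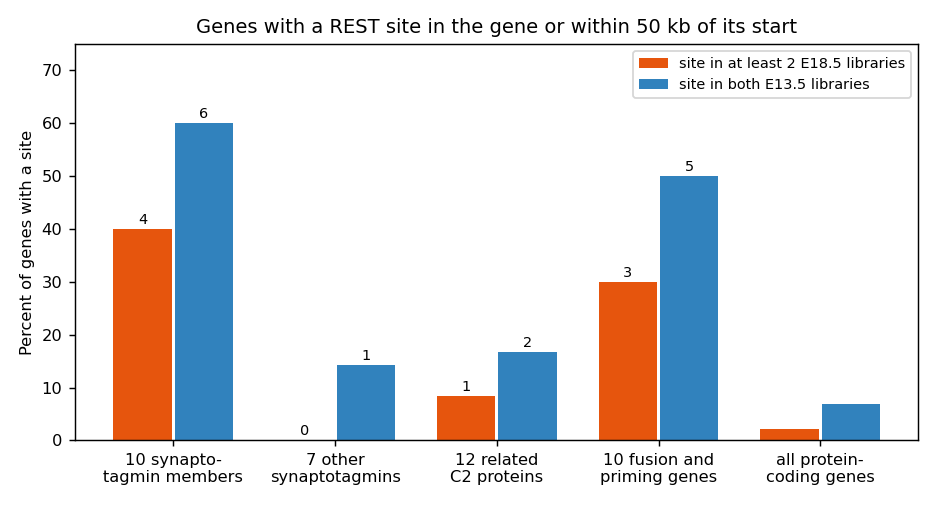
Percent of genes (y axis) with a REST site called in at least 2 E18.5 libraries (orange) or in both E13.5 libraries (blue), for the 10 members, 3 lists of related genes and all 22225 protein-coding genes. Numbers above bars are genes with a site, 4 and 6 for the members. Bars start at 0.

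The synaptotagmins that trigger fast release at synapses are Syt1, Syt2 and Syt9. Syt2 is the fast sensor of hindbrain and neuromuscular synapses. Its site was at chr1:136561319-136561881, 44277 bp upstream of the start of Syt2 and outside any protein-coding gene. No other protein-coding gene had this site in reach. The score there was 6 in E18.5 A and 7 in E18.5 C, with no peak in E18.5 B, against 17 in E13.5 A and 27 in E13.5 B. As percentiles these were 48.1 and 7.52 at E18.5, against 62.6 and 77.6 at E13.5. Both E13.5 percentiles lay above both E18.5 percentiles, and in E18.5 C the site was among the weakest peaks. Counted from the top of each list the order was the reverse, with places 239 of 541 and 203 of 226 in E18.5 A and C, against 500 of 1400 and 284 of 1333 in E13.5 A and B. A place cannot exceed the length of its list, so any peak of E18.5 C would have come before both E13.5 places. A percentile, too, is relative to the other peaks of its own list. Of the 113 sites called in all 5 libraries, 61.9% had every E18.5 percentile below both E13.5 percentiles. The Syt2 site, without a peak in E18.5 B, was not among these 113. The matched RE1 centre lay 8 bp from the centre of the site.

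Syt9 is the fast sensor of some limbic neurons and is also found on secretory granules. Its site, chr7:114536384-114536749, was in intron 1, 22240 bp downstream of the start. No E18.5 library had a peak, and both E13.5 libraries gave a score of 13, at percentiles of 44.8 and 29.4. Presence differed completely between the stages, with p = 0.1 by Fisher's exact test (two-sided, 3 E18.5 against 2 E13.5 libraries), the smallest value this design can give, and an adjusted p of 0.263 over 1860 sites, so the threshold of 0.05 was out of reach. Of the 127 sites in both E13.5 libraries with 2 or fewer mismatches, 87 (68.5%) were also called in 1 or more E18.5 libraries. Those sites mostly ranked higher, with a median E13.5 percentile of 72.8, against a mean of 37.1 at Syt9. The 68.5% is therefore not the share for close elements of a rank as low as that of Syt9.

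Syt1 is the main fast sensor of the forebrain and of adrenal chromaffin cells. Its site rested on a single peak of 120 bp at chr10:108203389-108203508, in library E13.5 A only. The score was 7, at percentile 9.14, which placed it 1230th of 1400 peaks. Of all sites, 35.5% were called in 1 library. The peak lay 244589 bp inside this gene of 513.333 kb, in intron 3 or 4 depending on the transcript, and 129429 bp upstream of the nearest annotated Syt1 transcript start. Without E13.5 A, the members with a site numbered 6.

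Syt3 and Syt7 bind calcium with higher affinity than the fast sensors. Syt3 had the highest-ranked site of the 10 genes at E13.5 and the one site called in all 5 libraries, as were 6.08% of all sites. It was at chr7:51590904-51591465. The score was 7, 6 and 12 in E18.5 A, B and C, against 31 and 43 in E13.5 A and B. The percentiles were 61.2, 53.2 and 58.0 at E18.5, against 91.9 and 94.3 at E13.5. Every E18.5 library lay below both E13.5 libraries, which was so at 61.9% of the 113 sites called in all 5 libraries.

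The mean percentile of the Syt3 site was 57.5 at E18.5 (n = 3) and 93.1 at E13.5 (n = 2), a difference of -35.6. The exact permutation test over the 5 libraries gave p = 0.2 (two-sided, the smallest it can give), with an adjusted p of 0.318 over the 113 sites, so the difference could not pass the threshold. The median difference over these sites was -16.9, with a range of -68.9 to 24.9, and 103 of the 113 were negative. Counted from the top of each list, the site held places 183, 159 and 90 at E18.5, against 109 and 72 at E13.5, and on that scale E18.5 C lay between the E13.5 libraries. The site is also ambiguous in its gene. It lay 48296 bp upstream of the start of Syt3 but in an intron of Shank1, a scaffold gene of excitatory synapses, 25553 bp from the start of Shank1, and it was also within reach of 1700008O03Rik and Clec11a.

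Syt7 is the sensor of slow, asynchronous release and takes part in insulin and glucagon secretion. Its site, chr19:10477524-10478067, with the pair of elements shown above, was in intron 1, 14255 bp downstream of the start. The score was 12 in E18.5 A and 11 in E18.5 C, with no peak in E18.5 B, against 24 in E13.5 A and 31 in E13.5 B. The percentiles were 86.9 and 51.1 at E18.5, against 82.1 and 84.5 at E13.5. The stages overlapped, since the highest of these values was from E18.5 A and the lowest from E18.5 C. In places from the top, the site stood 64th of 541 and 102nd of 226 at E18.5, against 236th of 1400 and 199th of 1333 at E13.5.

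**Figure D4:**
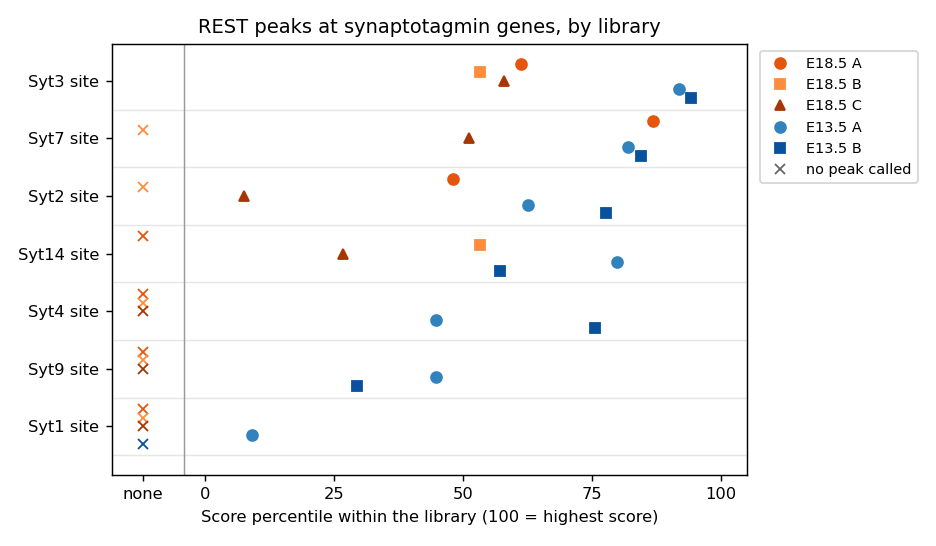
Score percentile within its library (x axis, 100 is the highest score) of each peak at the 7 member sites (rows, ordered by mean E13.5 percentile). Orange marks are E18.5 libraries and blue marks E13.5 libraries, and a cross at the left marks a library with no peak. Syt3 has all 5 marks, Syt4 and Syt9 have E13.5 marks only, and Syt1 has a single mark at 9.14.

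Of the genes whose proteins bind calcium weakly or not at all, Syt4 and Syt14 had sites next to their starts, and Syt11 and Syt13 had none. Syt14 encodes a synaptotagmin that does not bind calcium. Its site was at chr1:194862066-194862581, 446 bp upstream of the start. The score was 6 in E18.5 B and 9 in E18.5 C, with no peak in E18.5 A, against 23 in E13.5 A and 19 in E13.5 B. The percentiles were 53.2 and 26.8 at E18.5, against 79.9 and 57.3 at E13.5, and both E13.5 percentiles were above both E18.5 percentiles, the closest by a narrow margin. In places from the top the order was again the reverse. The site stood at 159 of 417 and 146 of 226 in E18.5 B and C, against 268 of 1400 and 551 of 1333 in E13.5 A and B. As at Syt2, the length of the E18.5 C list alone put its peak before both E13.5 places. The order of its percentiles was also that of 61.9% of the 113 sites called in all 5 libraries, to which Syt14 does not belong.

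Syt4 is an inducible gene whose protein is known to tune granule release in maturing mouse β cells. Its site was at chr18:31606612-31607062, centred 232 bp downstream of the start in a coding exon. No E18.5 library had a peak there. The score was 13 in E13.5 A and 26 in E13.5 B, at percentiles of 44.8 and 75.7. The E13.5 libraries thus ranked it differently, near the middle of one list and in the upper part of the other. Fisher's exact test gave p = 0.1 and an adjusted p of 0.263, as for Syt9. Sites of both E13.5 libraries without an E18.5 peak were 2 of the 7 at the members and 38.0% of all 1860 sites. Among sites in both E13.5 libraries they were 2 of 6 at the members and 59.5% of 1186 over the genome.

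The 4 member sites that had an E18.5 peak had mean E13.5 percentiles between 68.6 and 93.1, and the 2 that had none had 60.2 (Syt4) and 37.1 (Syt9). The same order held over the genome, where the mean was 72.9 for the 480 sites with an E18.5 peak and 41.8 for the 706 sites without one. Whether the shorter E18.5 lists account for the missing peaks at Syt4 and Syt9 was not tested beyond the equal-length lists, in which neither site was called in any library.

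By position among protein-coding genes, 1 of the 7 member sites was in a coding exon (Syt4). In introns were 3 of the member itself (Syt1, Syt7 and Syt9) and 1 of another gene (Syt3). Outside protein-coding genes lay 2 (Syt2 and Syt14), and genes of other types were not looked at. Over the genome 3.46% of 1849 sites were in coding exons, 40.3% in introns and 51.4% outside protein-coding genes. The member's own start was the nearest protein-coding start for 6 of the 7 sites, all but that of Syt3. Member sites were chosen by lying in the gene or near its start, so their positions are partly set by that rule. The genome shares cover all sites searched, whether or not a gene had them in reach.

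**Figure D5:**
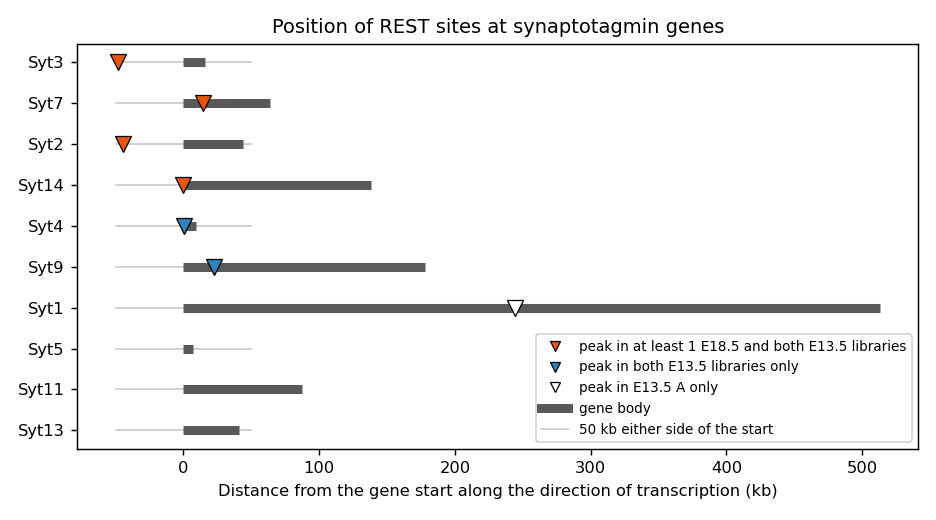
Sites (triangles) by distance from the gene start in kb along the direction of transcription (x axis) for the 10 members (rows). Thick bars are gene bodies and thin lines the 50 kb on either side of the start. Orange sites were called in at least 1 E18.5 and both E13.5 libraries, blue sites in both E13.5 libraries only, and the white site of Syt1 in E13.5 A only, deep inside its gene. The sites of Syt4 and Syt14 sit at the start.

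No peak was given to Syt5, a granule and vesicle isoform, to Syt11, a relative of Syt4, or to Syt13, an isoform known from endocrine precursors of the pancreas. The nearest site to Syt5 was 73.613 kb upstream of its start, called in 1 E18.5 and both E13.5 libraries. It lay closer to the start of Tmem86b, at 10.302 kb. The nearest to Syt11 was 327.052 kb upstream, also called in 1 E18.5 and both E13.5 libraries, and 0.847 kb from the start of Hcn3. The nearest to Syt13 was 156.748 kb downstream and was called in all 5 libraries, with the start of Prdm11 closer, at 25.679 kb. Sites below the authors' threshold at these genes would not have been listed.

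Among 7 other synaptotagmins, 2 had a site in any library, none in at least 2 E18.5 libraries and 1 in both E13.5 libraries. That one was Syt6, known from the sperm acrosome, with a site 1248 bp upstream of its start. It scored 4 in E18.5 B, with no peak in E18.5 A or C, against 27 and 23 in E13.5 A and B, at percentiles of 8.99 against 86.9 and 68.0. Of 12 related C2-domain genes (synaptotagmin-like, Doc2, rabphilin and extended synaptotagmin genes), 1 had a site in at least 2 E18.5 libraries (Rph3a) and 2 in both E13.5 libraries (Rph3a and Doc2a). Of 10 genes of the fusion and priming machinery on which synaptotagmins act, 3 had a site in at least 2 E18.5 libraries and 5 in both E13.5 libraries, with Snap25, Unc13a and Cplx2 under both rules and Cplx1 and Cadps under the E13.5 rule alone. These lists were not tested against the members.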

How the data were processed

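REST ChIP-seq peaks of mouse pancreas were analysed, from 3 libraries at E18.5 and 2 at E13.5. The authors aligned reads to mm9 with Bowtie2 2.2.5, used SAMtools, and called peaks with MACS2 2.1.0 against input DNA. The study's methods describe a call on pooled reads, whereas the lists used here are per library, with duplicates removed and a false discovery rate of 10% as their names state. The deposited score of a peak is the authors' value in an unstated unit, and read depth is unknown, so no interval for counting error is given.

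Overlapping entries of a list were merged (4, 2 and 3 at E18.5 and 7 and 2 at E13.5). Peaks of different libraries were joined into sites when they overlapped by 1 bp or more. Genes, starts and introns came from GENCODE M1 and sequence from NCBIM37, whose chromosomes fitted all peaks on 20 chromosomes, and 25 peaks on unplaced sequence were not searched. Percentiles gave ties their mean rank. Places from the top gave ties the best place. The RE1 consensus was built from 150 windows, and distances of sites are from the site centre.

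Tests were Fisher's exact test of presence and an exact permutation test over 10 regroupings of the libraries, with Benjamini-Hochberg adjustment over all sites tested. Scripts were tested on simulated data (Python 3.11.15, numpy 2.4.6, pandas 2.3.3, scipy 1.17.1, statsmodels 0.14.6). Every member was named with all its sites, and other lists were counted, with genes named where called in both E13.5 libraries. Sequence from chromosome 18 is not shown. The members and all lists were chosen with earlier results of these data known, and the genome scan for elements and the classes by mismatch were added after the peaks were seen. Alternatives were other search windows (10 kb, 100 kb, gene body only), joining at 50% overlap, the upper-scoring part of each list, lists of equal length, each library left out, other mismatch limits, a motif window of 200 bp and other percentile rules.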

Additional observations from a re-analysis of the deposited data

How the results depend on the processing

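Of the alternatives run on the main counts, 62 values stayed within 1.5 times of the reported one or kept their direction, and 14 did not. With a search window of 10 kb, 2 members had a site in at least 2 E18.5 libraries (1.02% of all protein-coding genes did under the same setting, and later shares are of the same kind). With the gene body only, 1 member did (0.720%), 3 had a site in both E13.5 libraries (2.38%), 4 had any site (3.56%) and 4 sites were at members, 3 with an RE1 match. With only the upper-scoring part of each list (percentile 50 or more), 2 members had a site in at least 2 E18.5 libraries (1.39%), and 1 member site was in both E13.5 libraries and no E18.5 library. With lists of equal length (226 peaks), 4 members had any site (3.58%), 4 sites were at members, 1 member had a site in both E13.5 libraries (1.48%), and 0 sites were in both E13.5 libraries with none at E18.5. Leaving out 1 library at a time gave 1 to 4 members with a site in at least 2 E18.5 libraries (1.37% to 2.21%). Where an E18.5 library was the one left out, this rule asked for both that remained and so was stricter. Members with any site were 6 to 7 (8.92% to 9.84%). With any E18.5 library left out, 6 members had a site in both E13.5 libraries (6.93%). With E13.5 A or E13.5 B left out, 6 or 7 had a site in the E13.5 library that remained (7.60% or 7.89%). The percentile difference at Syt3 ranged from -40.6 to -33.5 over all its alternatives, and its E18.5 mean was 52.0 with ties at the lowest rank. The scores have no stated unit and no depth is known, so neither a weak site nor a missing peak can be told from a shallow library. No paired analysis was possible because the letters A and B name different pools of embryos at the 2 stages.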

Other observations

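One element with 4 mismatches lay in a synaptotagmin gene without a peak in any library. It was in Syt16, a gene outside the 10 members, 197361 bp downstream of its start on chromosome 12. Of the other synaptotagmins, Syt8 had a single peak, in E18.5 A only, with a score of 5 and a best RE1 match of 8 mismatches.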
